A study of Boehmeria nivea with 12 samples.

Results

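The response of H4 ramie stems to water culture was described from 6 of the 12 libraries of the series. Ramie (Boehmeria nivea) is a bast fibre crop that is propagated by cuttings, and H4 (Huazhu No 4) is 1 of the 2 cultivars that were sequenced. The 3 H4T libraries came from stem segments kept in tap water for 10 days, with 4 to 5 cm of the stem submerged, and the 3 H4CK libraries came from stems that were taken directly from mother plants and not placed in water. The other cultivar, Z2 (Zhongzhu No 2), had 3 libraries with water culture (Z2T) and 3 without (Z2CK). Each library pooled 5 plants, all plants grew in a greenhouse, and tap water was the only agent applied to any group. The treated segments carried root primordia, so that a library mixes stem tissue with young roots. In such bulk samples more cells of a type and more RNA per cell cannot be told apart.

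Adventitious roots arise from stem tissue rather than from an existing root, and their formation decides whether a cutting survives. Root founder cells divide, form a primordium and break through the outer stem layers. In many plants auxin promotes this process, and ethylene, jasmonate and cytokinin modify it. Submergence and wounding also change transcription on their own, and in this design they cannot be told apart from rooting, since untreated stems were neither kept in water nor kept as cuttings for 10 days.

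The authors deposited the expression of 66,881 unigenes as FPKM, the number of fragments scaled by transcript length and by the size of the library. Unigenes are transcript groups that the Trinity assembler builds from reads, and their Trinity identifiers are the names used in the table. It does not pair these identifiers with gene names, so no gene or pathway is named here and the stem label could not be checked against marker genes. Unigenes were used where 2 or more of the H4 libraries compared had an FPKM of 1 or more. These were 26,323 (39.4% of those listed) with all 6 libraries. FPKM values summed to between 961,152 and 980,895 in H4T and between 914,642 and 1,053,150 in H4CK. From 24,201 to 24,881 unigenes had an FPKM of at least 1 in H4T, against 22,832 in H4CK2, 22,931 in H4CK3 and 32,087 in the library labelled H4CK1. The table holds no read counts per unigene. The paper lists the clean reads of each library, and by these the library labelled H4CK1 lay between H4CK3 and H4CK2.

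The library labelled H4CK1 stood apart from its group. Across the 26,323 unigenes, Pearson's r of log2(FPKM + 1) was 0.938 to 0.950 among the H4T libraries and 0.950 between H4CK2 and H4CK3. For the library labelled H4CK1, r was 0.814 to 0.819 with these 2 libraries, against 0.894 to 0.895 with the H4T libraries, 0.964 with Z2T2 and 0.956 with Z2T3. These correlations are across unigenes, which are not independent replicates. A second reading, chosen after the data were seen, used unigenes found in 1 cultivar only. Of 61 unigenes that reached an FPKM of 5 in all 3 H4T libraries, H4CK2 and H4CK3 and were listed at 0 in all 3 Z2CK libraries, 55 were listed at 0 in the library labelled H4CK1. Of 77 unigenes with the reverse pattern, 73 were above 0 in it, with a median FPKM of 10.99. The library labelled Z2T1 went the other way, with 61 of the 61 and 2 of the 77 above 0. With an FPKM of at least 1 in place of 5, the library labelled H4CK1 was above 0 for 25 of 190 and for 228 of 260 unigenes. The labels were kept as deposited. Every result is therefore given for all 6 libraries and again without the library labelled H4CK1, as a 6-library and a 5-library comparison.

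Most unigenes differed little between H4T and H4CK, and among those that differed widely more were higher in H4T. In the 6-library comparison the median absolute log2 fold change (FC) was 0.33, and 87.0% of the unigenes lay within 2-fold on log2(FPKM + 1). In the 5-library comparison, with 25,015 unigenes, the median was 0.43 and 79.9% lay within 2-fold. The middle 90% of the log2 FC ran from -1.01 to 1.27 with 6 libraries and from -1.37 to 1.71 with 5. The FC is understated for unigenes with low values on this scale. The median SD between libraries was 0.22 in H4T, against 0.42 in the 3 H4CK libraries and 0.18 in H4CK2 and H4CK3.

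Without regard to p, 552 unigenes (2.1%) had an absolute log2 FC of 2 or more with 6 libraries, 389 higher (1.48%) and 163 lower (0.619%) in H4T. With 5 libraries 1371 unigenes (5.48%) were found, 868 higher (3.47%) and 503 lower (2.01%) in H4T. The filter bears on this split, since H4T could pass it with 2 of 3 libraries and H4CK alone only with both, and without it 872 were higher and 779 lower (52.8% higher). Each unigene so added had an FPKM of at least 1 in at most 1 of the 5 libraries. A single library weighs more among 2 H4CK libraries than among 3 H4T libraries, so neither split is free of this imbalance. With 6 libraries the split without the filter was 393 higher and 180 lower. The lists had 489 unigenes in common, all 489 in the same direction, which is 88.6% of the 6-library list and 35.7% of the 5-library list. As the comparisons share 5 libraries, the same direction was largely built in. The share that was higher in H4T was larger at larger steps, up to 4 with 6 libraries and up to 6 with 5. At an absolute log2 FC of at least 4, 26 were higher and 3 lower with 6 libraries, and 108 were higher and 25 lower with 5 libraries. At 6 or more, 1 was higher and 0 lower with 6 libraries, and 16 were higher and 1 lower with 5. The most extreme values were 6.55 and -5.24 with 6 libraries and 7.77 and -7.32 with 5. Some unigenes were listed at 0 in 1 group, so that their FC depends on the pseudocount of 1.

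**Figure D1:**
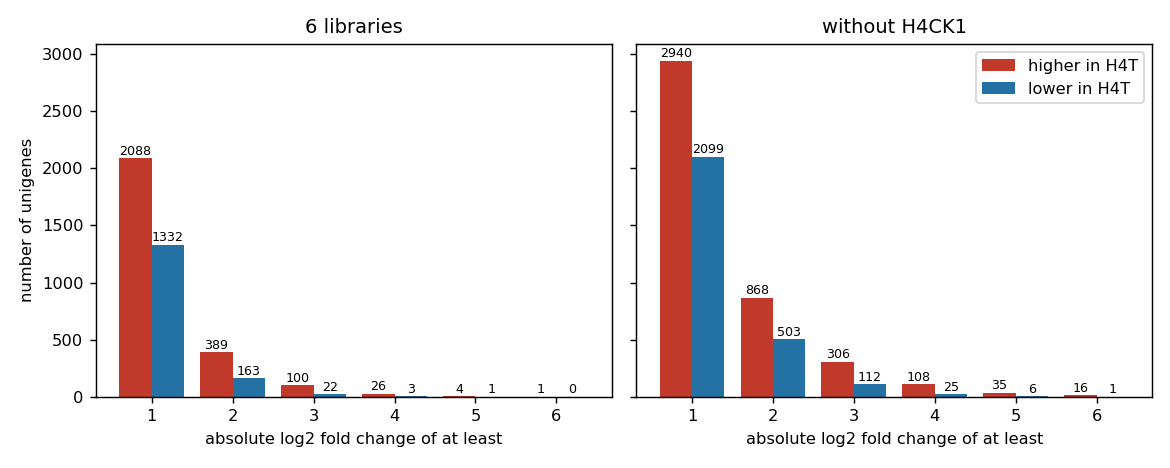
Number of unigenes (y axis) at or above each absolute log2 fold change (x axis), higher (red) or lower (blue) in H4T, with 6 libraries (left) and without the library labelled H4CK1 (right). At 2 or more, 389 were higher and 163 lower with 6 libraries, against 868 and 503 without that library, where leaving out the filter on low values gives 872 and 779.

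The direction was also read relative to the median unigene. The median log2 FC was 0.11 with 6 libraries and 0.14 with 5, and median-of-ratios scaling shifted it by -0.10 and -0.14, to 0.01 and 0.00. With this scaling 350 unigenes were higher and 202 lower at an absolute log2 FC of at least 2 with 6 libraries (63.4% higher, against 70.5% as deposited), and 794 were higher and 615 lower with 5 (56.4%, against 63.3%). Quantile normalization shifted the 5-library median by -0.17, and 54.4% of the unigenes at this step were then higher. The share higher stayed above 50% under each scaling tried with the filter in place, by a smaller margin without the library labelled H4CK1.

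Whether the differences exceeded the spread between libraries was tested with limma, and DEGs were called where the adjusted p (Benjamini-Hochberg) was under 0.001 and the log2 FC was 2 or more in either direction. With 6 libraries 0 of 26,323 unigenes passed (0%), and 0 passed at an adjusted p under 0.05. The smallest adjusted p was 0.0690, and 3615 unigenes (13.7%) had an unadjusted p under 0.05, 2517 higher and 1098 lower in H4T as deposited, and 1720 higher and 1676 lower with median-of-ratios scaling. These counts give each library equal weight. With array weights estimated from the data, which were 0.146 for the library labelled H4CK1 and 0.653 to 3.23 for the other 5, limma again gave 0 DEGs, but the smallest adjusted p was 0.00343, 11,604 unigenes (44.1%) had an unadjusted p under 0.05, and 1207 (4.59%) passed at an adjusted p under 0.05 with an absolute log2 FC of at least 2, 744 higher and 463 lower in H4T. With 5 libraries 47 of 25,015 unigenes passed (0.188%), 43 higher (0.172%) and 4 lower (0.016%) in H4T, and 9339 (37.3%) had an unadjusted p under 0.05. The median standard error of the log2 FC was 0.32 with 6 libraries and 0.24 with 5. Leaving out any other H4T or H4CK library as well gave 0 DEGs, with 6822 to 9006 unigenes at an unadjusted p under 0.05. The 47 kept their direction and an absolute log2 FC of at least 2 in each case. They had been chosen for a large FC in these same libraries, so this is no independent test. Median-of-ratios scaling of the 5 libraries also gave 0, and a fit with 11 libraries gave 3 higher and 16 lower.

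At an adjusted p under 0.05 with the same FC, 1123 unigenes (4.49%) passed with 5 libraries, 691 higher (2.76%) and 432 lower (1.73%) in H4T. Leaving out a further library gave 834 to 1231, and median-of-ratios scaling gave 617 higher and 521 lower. Without a limit on the FC 5537 unigenes (22.1%) passed, 3415 higher and 2122 lower in H4T as deposited, but 2427 higher and 2755 lower with median-of-ratios scaling and 2746 higher and 2788 lower with quantile normalization. All 1123 unigenes were also examined with 6 libraries, where 1122 had the same direction and 399 kept an absolute log2 FC of at least 2. The comparisons share 5 libraries, so the same direction was largely built in and is no independent test. Their median absolute log2 FC was 1.78 with 6 libraries, against 2.62 with 5. The median SD of these 1123 unigenes was 0.34 in H4T, against 1.61 in the 3 libraries labelled H4CK.

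**Figure D2:**
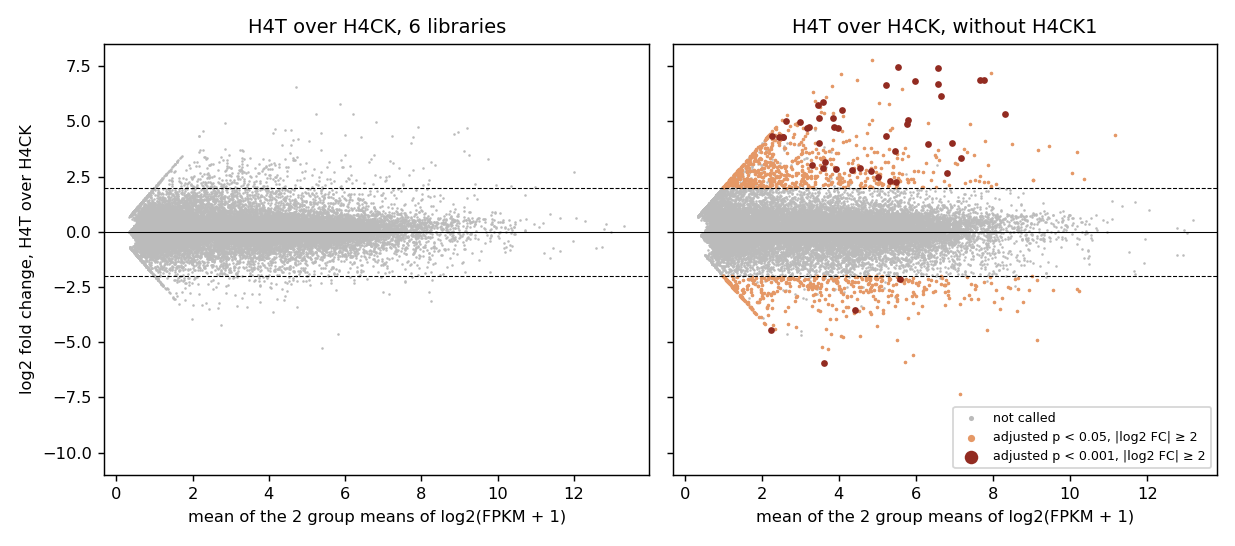
Log2 fold change of H4T over H4CK (y axis) against the mean of the group means of log2(FPKM + 1) (x axis), 1 point per unigene, with 6 libraries (left) and without the library labelled H4CK1 (right). Orange points have an adjusted p under 0.05 and dark red points one under 0.001, both beyond a log2 fold change of 2 in either direction (dashed lines), with 0 such points on the left and 1123 on the right, 47 of them dark red.

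Libraries of H4T and H4CK did not overlap for 5561 unigenes (21.1%) in the 6-library comparison, 3894 higher (14.8%) and 1667 lower (6.33%) in H4T, and with median-of-ratios scaling 2759 were higher and 2564 lower. In the 5-library comparison 13,682 unigenes (54.7%) did not overlap, 8727 higher (34.9%) and 4955 lower (19.8%) in H4T. Fewer libraries raise this count by construction, and its direction rested on the scaling, with 6747 higher and 6697 lower with median-of-ratios scaling and 6622 higher and 6998 lower with quantile normalization. Of the 1123 unigenes called at an adjusted p under 0.05 without the library labelled H4CK1, 345 also did not overlap once it was included, 218 higher and 127 lower in H4T. Of the 47 DEGs, 11 did so.

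The library labelled H4CK1 had been left out for its unlike profile, so its values for the 1123 unigenes describe that profile and are no independent test. The 691 unigenes higher in H4T had a median FPKM of 19.8, 17.9 and 17.5 in the H4T libraries, against 1.00 in H4CK2, 1.12 in H4CK3 and 23.2 in the library labelled H4CK1. They made up 8.19% to 8.53% of all FPKM in the H4T libraries, against 9.44%, 0.700% and 0.785% in the libraries labelled H4CK1, H4CK2 and H4CK3. The 432 unigenes lower in H4T had a median FPKM of 3.76, 3.73 and 3.34 in the H4T libraries, against 29.1 in H4CK2, 26.3 in H4CK3 and 4.04 in the library labelled H4CK1. They made up 0.695% to 0.933% of all FPKM in the H4T libraries, against 0.828%, 6.88% and 5.26% in these H4CK libraries.

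**Figure D3:**
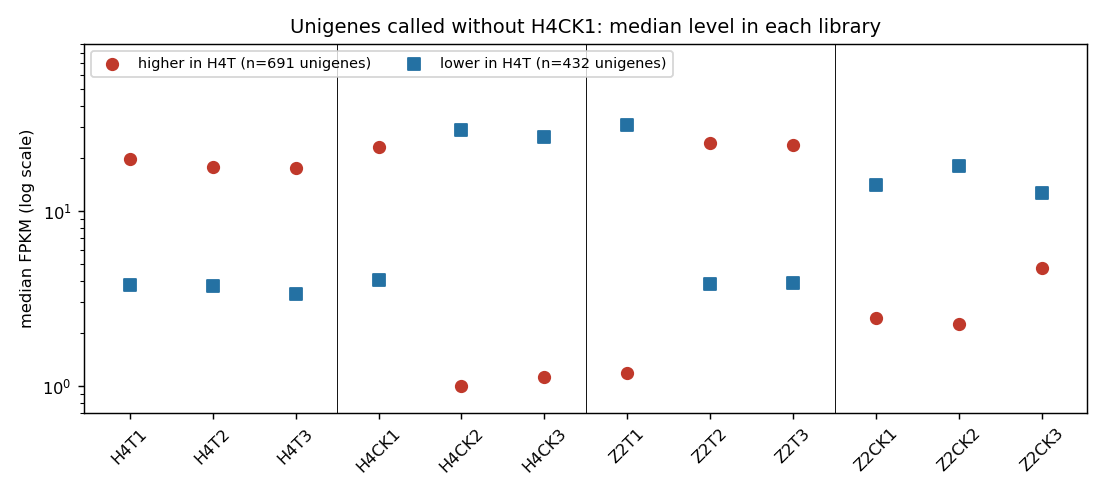
Median FPKM (y axis, log scale) in each of the 12 libraries (x axis) of the 691 unigenes called higher (red circles) and the 432 called lower (blue squares) in H4T without the library labelled H4CK1. The medians of that library, 23.2 and 4.04, lie beside those of H4T, Z2T2 and Z2T3, and those of the library labelled Z2T1 beside H4CK2 and H4CK3.

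For each of these unigenes, a position was set to 0 at the mean of H4CK2 and H4CK3 and to 1 at the mean of H4T, on log2(FPKM + 1). The median position of the library labelled H4CK1 was 1.05 for the 691 higher unigenes, and 598 of them (86.5%) lay nearer H4T. For the 432 lower unigenes it was 1.00, and 387 (89.6%) lay nearer H4T. Of the 47 DEGs, all 4 that were lower and 42 of the 43 that were higher lay nearer H4T. In 93 of the higher and 45 of the lower unigenes the library labelled H4CK1 lay nearer H4CK2 and H4CK3.

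The 3 DEGs with the largest rise in the 5-library comparison, singled out after their values were seen, were abundant in H4T and low in H4CK2 and H4CK3. The first had an FPKM of 774, 547 and 563 in H4T, against 3.18 in H4CK2, 1.98 in H4CK3 and 631 in the library labelled H4CK1. Its log2 FC was 7.46 (standard error 0.22, adjusted p = 0.000575) with 5 libraries and 4.96 (standard error 2.02, adjusted p = 0.361) with 6. The second had an FPKM of 1601, 1035 and 1156 in H4T, against 1832, 8.60 and 4.48 in the libraries labelled H4CK1, H4CK2 and H4CK3. In both, the library labelled H4CK1 lay within or above the range of H4T. The third had an FPKM of 2847, 2070 and 2264 in H4T, against 2711, 19.7 and 18.8 in the libraries labelled H4CK1, H4CK2 and H4CK3.

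On their high side, the 4 DEGs with a fall were less abundant than the DEGs with the largest rise. All 43 DEGs higher in H4T had a median FPKM of 88.25, 85.2 and 82.1 in the H4T libraries. The 4 with a fall had a median of 81.3 in H4CK2 and 85.4 in H4CK3. The first had an FPKM of 0.32, 0.73 and 0.64 in H4T, against 95.7 in H4CK2, 93.3 in H4CK3 and 1.55 in the library labelled H4CK1, a log2 FC of -5.94 (standard error 0.19, adjusted p = 0.000575) with 5 libraries and of -4.20 (standard error 1.42, adjusted p = 0.312) with 6. The second was listed at 0 in the 3 H4T libraries and in the library labelled H4CK1, against 21.06 in H4CK2 and 21.03 in H4CK3. The other 2 had a mean FPKM of 5.38 and 21.6 in H4T, against 72.2 and 99.9 in H4CK2 and H4CK3. In all 4 the library labelled H4CK1 lay nearer to H4T than to H4CK2 and H4CK3.

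Large changes were found at every level of expression, with few among the lowest unigenes. Level was taken as the mean of the H4T and H4CK group means of FPKM. Below an FPKM of 2 only 5 of 6189 unigenes had an absolute log2 FC of at least 2 with 6 libraries and 39 of 5229 with 5, where the pseudocount leaves little room for it. At an FPKM of 200 or more it was 49 of 682 (7.18%) with 6 libraries and 79 of 681 (11.6%) with 5, the highest share of the 6 level classes in each comparison. In the classes between, the share was 2.26% to 3.03% with 6 libraries and 5.08% to 8.91% with 5. The median standard error was 0.46 below an FPKM of 2 and 0.25 at 200 or more with 6 libraries, and 0.38 and 0.17 with 5.

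The split by direction was not the same at each level or with and without the library labelled H4CK1, and it was not tested between levels. With 6 libraries 39 unigenes at an FPKM of 200 or more were higher in H4T and 10 lower, and from 50 to 200 it was 59 higher and 23 lower. With 5 libraries it was 40 higher and 39 lower at 200 or more, and 85 higher and 90 lower from 50 to 200. Under median-of-ratios scaling the numbers without that library were 38 higher and 55 lower, and 74 higher and 117 lower. At an FPKM from 2 to 5, 252 unigenes were higher and 91 lower in H4T with 5 libraries, and from 5 to 10 it was 197 and 82. These splits rest on the filter, since without it they were 252 higher and 192 lower from 2 to 5, and 197 higher and 240 lower from 5 to 10.

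**Figure D4:**
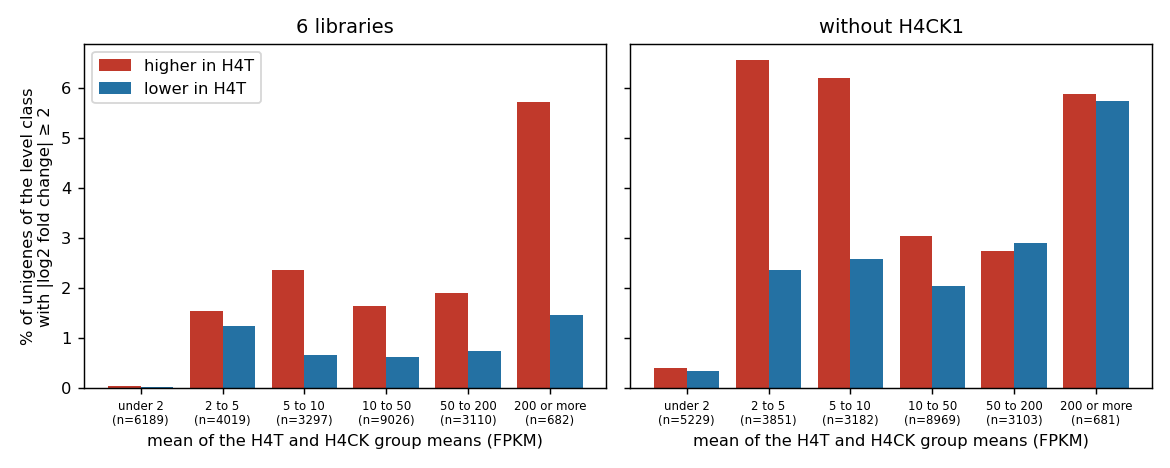
Share of the unigenes of a level class (y axis, %) beyond a log2 fold change of 2, higher (red) or lower (blue) in H4T, by the mean of the group means of FPKM (x axis, number of unigenes in brackets), with 6 libraries (left) and without the library labelled H4CK1 (right). At 200 or more, 39 were higher and 10 lower on the left and 40 and 39 on the right, and from 5 to 10 the 197 higher and 82 lower on the right become 197 and 240 without the filter on low values.

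The levels on either side of these changes were given by the group means. With 5 libraries, the 868 unigenes at a log2 FC of at least 2 had a median mean FPKM of 15.5 in H4T, against 0.720 in H4CK2 and H4CK3. Of these, 467 (53.8%) had a mean under 1 in H4CK2 and H4CK3, and 195 of them had a mean of at least 10 in H4T. With 6 libraries, the 389 unigenes at this step had a median mean of 24.2 in H4T and 5.96 in H4CK. Of these, 98 were under 1 in H4CK, and 41 of the 98 had a mean of at least 10 in H4T. The 503 unigenes at a log2 FC of -2 or less with 5 libraries had a median mean of 3.75 in H4T, against 30.2 in H4CK2 and H4CK3, and 146 (29.0%) were under 1 in H4T. With 6 libraries these were 163 unigenes, with a median mean of 1.12 in H4T and 22.3 in H4CK, and 74 were under 1 in H4T. A mean of at least 1000 in H4T was reached by 14 of the 868 higher unigenes, and one of at least 1000 in H4CK2 and H4CK3 by 14 of the 503 lower ones. With 6 libraries, 12 of the 389 higher unigenes reached this in H4T and 2 of the 163 lower ones in H4CK.

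Among the 100 most abundant unigenes 12 were higher in H4T and 1 lower at an absolute log2 FC of at least 2 with 6 libraries, against 2.1% of all unigenes, and 12 were higher and 6 lower with 5, against 5.48%. At an absolute log2 FC of at least 1 it was 15 higher and 5 lower with 6 libraries, against 13.0% of all unigenes, and 15 higher and 15 lower with 5, against 20.1%. Their median absolute log2 FC was 0.46 with 6 libraries and 0.62 with 5, against 0.33 and 0.43 over all unigenes. At an adjusted p under 0.05 and any FC, 0 of the 100 passed with 6 libraries, and 40 passed with 5 (against 22.1% of all unigenes), 27 higher and 13 lower in H4T as deposited. The mean FPKM of these unigenes was 834 to 10,557 with 6 libraries.

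Few unigenes were found in 1 condition alone. With 6 libraries 42 unigenes had an FPKM of at least 1 in every H4T library and were listed at 0 in every H4CK library, and 16 had the reverse pattern. Their median group means were 2.92 FPKM in H4T and 3.26 FPKM in H4CK. Without H4CK2 the counts were 61 in H4T alone and 65 in H4CK alone, and without H4CK3 they were 71 and 72. At an FPKM of at least 5 there were 4 and 0 with 6 libraries. Without the library labelled H4CK1 there were 205 found in H4T alone and 144 in H4CK alone. That library was above 0 for 163 of the 205 and for 23 of the 144. A unigene listed at 0 may also lie below what the depth could show.

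With 6 libraries, 389 of 26,323 unigenes had a log2 FC of at least 2 and 163 one of -2 or less. H4T and H4CK did not overlap for 179 of the 389 and 69 of the 163, against 21.1% of all unigenes. Of those without overlap, the 2 in each direction with the smallest p were examined singly. TRINITY_DN42501_c3_g1 had an FPKM of 33.8, 57.1 and 30.6 in H4T, against 0.11, 0.80 and 0.11 in H4CK, and at most 0.12 in Z2T and 0.26 in Z2CK. It was high in the H4T libraries only, out of all 12. Its log2 FC was 4.94 (standard error 0.34, adjusted p = 0.0690) with 6 libraries and 4.82 (standard error 0.35, adjusted p = 0.00218) with 5.

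TRINITY_DN34889_c0_g1 had an FPKM of 18.0, 24.7 and 19.4 in H4T, against 1.72, 0.55 and 1.15 in H4CK, and at most 0.55 in Z2T and 0.45 in Z2CK. The 3 H4T libraries were again above every other library. Its log2 FC was 3.37 (standard error 0.28, adjusted p = 0.0690) with 6 libraries and 3.56 (standard error 0.23, adjusted p = 0.00186) with 5. Its mean FPKM was 20.7 ± 3.51 in H4T and 1.14 ± 0.59 in H4CK (SD, n = 3 each), an 18.2-fold ratio.

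TRINITY_DN39378_c1_g1 had an FPKM of 10.3, 11.9 and 8.91 in H4T, against 48.6, 47.8 and 39.9 in H4CK. In Z2 it was 42.1, 48.9 and 60.3 in Z2T, against 107, 121 and 147 in Z2CK, so that libraries with water culture were lower in both cultivars without overlap. Its log2 FC in H4 was -2.03 (standard error 0.16, adjusted p = 0.0690) with 6 libraries and -1.98 (standard error 0.17, adjusted p = 0.00290) with 5.

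TRINITY_DN39868_c1_g2 had an FPKM of 2.21, 3.94 and 6.47 in H4T, against 48.8, 74.5 and 61.1 in H4CK. In Z2 it was 42.8, 16.0 and 30.5 in Z2T, against 517, 216 and 220 in Z2CK. Its log2 FC in H4 was -3.65 (standard error 0.34, adjusted p = 0.0690) with 6 libraries and -3.80 (standard error 0.37, adjusted p = 0.00396) with 5. In these 4 unigenes the library labelled H4CK1 lay with H4CK2 and H4CK3, which the choice of non-overlapping groups required. As that library resembles Z2T2 and Z2T3, the same choice favoured low Z2T values in the unigenes named for a rise.

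**Figure D5:**
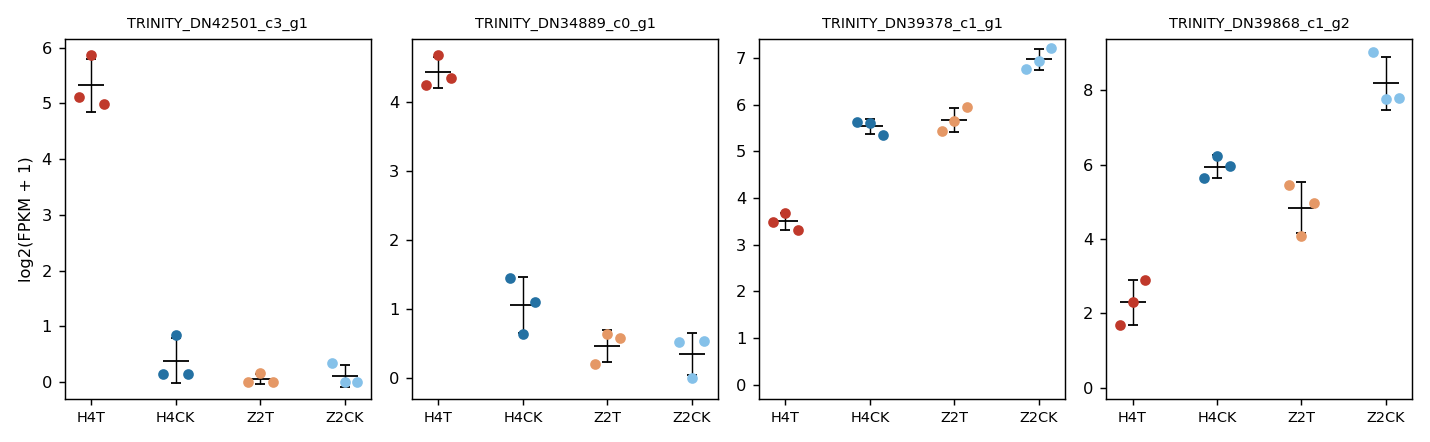
Log2(FPKM + 1) (y axis) of 4 unigenes in the 3 libraries (points, in order of replicate number) of H4T, H4CK, Z2T and Z2CK (x axis), with the mean and SD of the log2 values. TRINITY_DN42501_c3_g1 and TRINITY_DN34889_c0_g1 are high in H4T only, and the other 2 are lower with water culture in H4 and in Z2. The choice of the former required low values in the library labelled H4CK1, which resembles Z2T2 and Z2T3.

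The response of H4 was set against that of Z2 as an interaction in 1 limma fit, on the 26,323 unigenes. These had passed the filter in the 6 H4 libraries, so unigenes expressed in Z2 alone were left out. With 12 libraries 0 unigenes passed the thresholds for DEGs (0%), with 2652 (10.1%) at p under 0.05 before adjustment, and the smallest adjusted p was 0.00728. At an adjusted p under 0.05 and an absolute log2 value of at least 2, 13 unigenes (0.0494%) passed. In 7 the FC was more positive in H4, with a median log2 FC of 2.73 in H4 and 0.00 in Z2. Unigenes expressed in H4 alone did pass this filter, so an FC of 0 in Z2 can also mean no expression there. In 6 it was more negative, with a median of -0.62 in H4 and 2.82 in Z2. Without the libraries labelled H4CK1 and Z2T1, 0 passed the thresholds for DEGs, 4628 (17.6%) had an unadjusted p under 0.05 and 141 (0.536%) passed at the adjusted p of 0.05, 43 more positive and 98 more negative in H4. With 10 libraries 54 were more positive and 103 more negative as TPM, and median-of-ratios scaling gave 44 and 123, while quantile normalization gave 139 and 140. With 12 libraries 11 were more positive and 6 more negative as TPM, and median-of-ratios scaling gave 10 and 8, while quantile normalization gave 3 and 4. Of the 43, 26 had an absolute log2 FC of at least 2 in H4 and under 1 in Z2. Of the 98, 38 did so, and 28 had the reverse pattern.

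The 691 unigenes called higher in H4T with 5 libraries had a median log2 FC of 2.71 in H4, and in Z2, without the library labelled Z2T1, of 2.18. In Z2, 634 of them had the same direction and 366 a log2 FC of at least 2. The 432 called lower in H4T had a median of -2.50 in H4 and of -1.54 in Z2, where 371 had the same direction and 139 a log2 FC of -2 or less. With the library labelled Z2T1 included, the medians in Z2 were 1.22 and -0.70. Of the 691, 571 then had the same direction in Z2 and 213 a log2 FC of at least 2. Of the 432, 330 had the same direction and 45 a log2 FC of -2 or less. The shares over all tested unigenes are not given here, so these counts are no measure of agreement beyond that of other unigenes. The comparisons in H4 and Z2 have no library in common. The unigenes were chosen by their values in H4, so values nearer 0 in Z2 are a description and no test of a difference.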

How the data were processed

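Stems of H4 and Z2 were sequenced by the authors on an Illumina platform, and the deposited values are FPKM to 2 decimals. The study's methods give RSEM for FPKM of genes on a ramie genome. How the table's Trinity unigenes were built and quantified was not given in the sources used here. FPKM were used as deposited, on log2(FPKM + 1), and columns were assigned to libraries by label. Unigenes were kept where 2 or more of the compared H4 libraries had an FPKM of 1 or more. For the interaction the filter used the 6 H4 libraries, also where the library labelled H4CK1 was left out of the fit. Unigenes expressed in Z2 alone therefore did not enter it, while those expressed in H4 alone did. A test for counts was not used, since FPKM are not counts. limma 3.58.1 in R 4.3.3 was fitted, with its prior variance following the mean level, to the 6 (or 5) H4 libraries, and to 12 (or 10) libraries for the interaction. DEGs were called at an adjusted p (Benjamini-Hochberg) under 0.001 with a log2 FC of 2 or more in either direction, and all adjusted p-values are limma's. The fit was tested on simulated data. The 2 unigenes named in each direction were those with the smallest p in the 6-library fit among unigenes whose groups did not overlap and whose absolute log2 FC was at least 2. The samples, the 5-library comparison and the rules were chosen with earlier results of these data known. Alternatives were the pseudocount, filter, thresholds, scaling, prior variance, array weights, other libraries in the fit, a replicate block and leaving out each library. Same-numbered H4T and H4CK libraries did not deviate together (correlations of -0.01 to 0.04), so the numbers were not taken as pairs. Tables and plots were made with Python 3.11.15, pandas 2.3.3 and matplotlib 3.10.9.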

Additional observations from a re-analysis of the deposited data

Results flagged for a closer look

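TRINITY_DN42501_c3_g1 differed in its response between H4 and Z2, with a log2 interaction of 4.99 (standard error 0.42, adjusted p = 0.00728) with 12 libraries and 4.85 (standard error 0.46, adjusted p = 0.00903) without the libraries labelled H4CK1 and Z2T1, and all 3 H4T libraries were above the other 9. TRINITY_DN34889_c0_g1 did so with 3.25 (standard error 0.40, adjusted p = 0.0308) and 3.31 (standard error 0.37, adjusted p = 0.0131). Both unigenes were named for their values in H4T and H4CK, which the interaction uses again. The rule also required a low value in the library labelled H4CK1, which resembles Z2T2 and Z2T3. Their interaction values are therefore a description and no independent test. Both had an FPKM of at most 0.55 in every Z2 library. No response and no expression in Z2 cannot be told apart here. At an adjusted p under 0.05 and an absolute log2 value of at least 2, the response differed between the cultivars in 13 unigenes with 12 libraries and in 141 without the libraries labelled H4CK1 and Z2T1. No group had the 4 libraries needed to look for single outlying values.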

How the results depend on the processing

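With 6 libraries the count of DEGs was 0 under the alternatives tried, except 1 with all 12 libraries in 1 fit and a range of 0 to 47 when 1 library was left out, 47 being the count without the library labelled H4CK1. With 5 libraries the 47 DEGs became 11 with a pseudocount of 0.01, 84 with a filter at an FPKM of 5, 19 with 11 libraries in 1 fit (3 higher and 16 lower in H4T, against 43 and 4), and 0 without a filter, with median-of-ratios scaling, with a constant prior variance, with the replicate block, and with any other library left out (0 to 0). An adjusted p under 0.05 gave 1123, and 5537 with any FC. The 1123, a count added after the data were seen, became 1879 and 1876 with pseudocounts of 0.1 and 0.01, 170 with 11 libraries in 1 fit and 903 with the replicate block, and 834 to 1231 with 1 more library left out. The replicate block gave 0 DEGs with 6 libraries and 0 for the interaction.

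The share higher in H4T at an absolute log2 FC of at least 2 was 70.5% with 6 libraries, 74.3% with a filter on 3 columns, 63.4% with median-of-ratios scaling and 63.3% to 71.4% with 1 library left out. With 5 libraries it was 63.3%, and 66.5% with a pseudocount of 0.1, 52.8% (872 higher and 779 lower) without a filter, 67.7% with a filter on 3 columns, 56.4% with median-of-ratios scaling, 60.6% as TPM, 54.4% after quantile normalization and 62.8% to 65.6% with 1 more library left out. Unigenes without overlap numbered 6806 to 13,682 with 1 of the 6 libraries left out and 14,852 to 17,749 with 1 of the 5, where fewer libraries raise the count. The interaction gave 13 unigenes with 12 libraries and 141 with 10 at an adjusted p under 0.05. At the thresholds for DEGs its count of 0 became 17 with 10 libraries and a constant prior variance, and with 1 library left out it was 0 to 1 with 12 libraries (1 without Z2CK2) and 0 with 10. The 58 unigenes found in 1 condition alone with 6 libraries became 126 to 349 with 1 left out. Where H4CK2 or H4CK3 was left out beside the library labelled H4CK1, the lone H4CK library was assumed to vary like H4T. The 4 named unigenes kept their direction in 12 of 12 alternatives each. Groups that do not overlap cannot change direction when 1 library is left out, so leaving out libraries was no test of it. In the 12 alternatives none of the 4 met the thresholds for DEGs, and limma's adjusted p ran from 0.00186 to 0.413. The cause of the differences between settings was not tested. As the table gives FPKM alone, the read counts behind low values are unknown.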

Other observations

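The untreated Z2 libraries differed among themselves at the unigenes called in H4. On the scale from 0 at H4CK2 and H4CK3 to 1 at H4T, the 43 DEGs higher in H4T had a median position of 0.60 in Z2CK3, against 0.09 in Z2CK1 and 0.08 in Z2CK2, and 30 of the 43 lay nearer H4T in Z2CK3, against 7 in Z2CK1 and 2 in Z2CK2. The unigene with the third largest rise among the 43 DEGs higher in H4T had an FPKM of 3797 and 3502 in Z2T2 and Z2T3 and 23.9 in the library labelled Z2T1, against 32.2 in Z2CK1, 20.4 in Z2CK2 and 782 in Z2CK3.

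Unigenes of 1 Trinity component, which were assembled from overlapping sequence and can share reads, mostly had the same direction where both differed widely. Of 136 pairs in 1 component with both unigenes at an absolute log2 FC of at least 2 without the library labelled H4CK1, 125 (91.9%) had the same direction, and with 6 libraries 25 of 26. As 63.3% of the 1371 unigenes at this step were higher in H4T, some agreement arises without any link. Of the 1371, 701 had another tested unigene in their component, but only 98 components held 2 or more unigenes at this step. The 1371 unigenes at this step belonged to 1256 components, so that the counts of unigenes are somewhat above the counts of components.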
